A study of Drosophila melanogaster with 12 samples.

Results

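The glutathione S-transferase (GST) genes of Drosophila melanogaster were taken as the genes whose symbol begins with Gst, a class letter (D, E, S, T, O or Z) and a number. They numbered 35 of the 17139 genes in the deposited expression table, and were represented by 54 RefSeq transcripts. By class they were 11 Delta, 14 Epsilon, 3 Omega, 1 Sigma, 4 Theta and 2 Zeta genes. Their levels were compared in larval fat body, dissected 96 hours after egg laying, between 6 libraries of r4-Gal4>TFAM RNAi and 6 libraries of r4-Gal4>WT, called TFAM RNAi and control here. Both groups carry r4-Gal4, a driver of the yeast activator Gal4 that is active mainly in the larval fat body; in the TFAM RNAi group it drives RNA interference against TFAM, whose protein binds and compacts mitochondrial DNA and helps transcribe it. No library carries another RNAi construct. An effect of TFAM loss therefore cannot be told apart here from one of the construct itself or of strain background. The titles number the TFAM RNAi replicates 3 to 8 and the control replicates 2, 3, 5, 6, 7 and 8. No label ties a replicate to its own culture or animals, and a p-value here therefore reflects only how far these libraries vary, in part perhaps technically.

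GSTs join the tripeptide glutathione to electrophilic molecules, such as products of lipid peroxidation, plant toxins and insecticides, and some also reduce peroxides. The Delta and Epsilon classes are specific to arthropods and are arranged as clusters of closely related copies, whereas the Omega, Sigma, Theta and Zeta classes are shared with vertebrates. The insect fat body carries out much of the detoxification that the liver does in vertebrates. Several fly GST genes, GstD1 above all, are induced in oxidative stress through the transcription factor CncC, the fly relative of Nrf2, with its partner Maf-S, and Keap1 holds CncC in check.

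Expression is given as TPM, a level scaled by transcript length and by the library's total. The targeted gene, TFAM, stood at 22.1 to 26.9 TPM in TFAM RNAi and at 78.5 to 101 TPM in control (log2 fold change −1.88, limma adjusted p = 5.2e-09). Of 6 larval fat body markers, 5 averaged at least 1 TPM in each group, with summed levels of 75975 to 85201 TPM in TFAM RNAi and 82914 to 111054 TPM in control. The sum hides unlike genes: Nplp2 was wholly lower, at 38670 to 47730 TPM in TFAM RNAi and 56190 to 70010 TPM in control, while the medians of apolpp, Apoltp, Lsp1beta and Lsp2 were higher in TFAM RNAi (2487, 157, 34060 and 4311 TPM) than in control (267, 108, 22790 and 3127 TPM), with ranges that overlapped. Some libraries stood apart. Midgut markers (7 in the list) summed to 173 to 2677 TPM in TFAM RNAi and 352 to 3670 TPM in control; at the median most of it was Jon65Aiv, at 656 TPM in TFAM RNAi and 784 TPM in control. Of the other midgut markers, epsilonTry was wholly higher, at 1.91 to 278 TPM in TFAM RNAi and 0.153 to 0.871 TPM in control, and betaTry had a median of 74.5 TPM in TFAM RNAi and 2.99 TPM in control. Muscle markers (6) summed to 327 to 874 TPM in TFAM RNAi and 224 to 2722 TPM in control. Salivary gland markers (6) reached 1026 TPM in TFAM RNAi replicate 3 and at most 21.7 TPM in the other 11 libraries. Haemocyte (4), gonad (5 of 6 in the table) and oenocyte (3) markers summed to at most 22.3, 56.7 and 18.4 TPM in any library. Malpighian tubule markers (4) summed to 434 to 820 TPM in TFAM RNAi and 841 to 1245 TPM in control. Most of this gap lay in urate oxidase (Uro), at 273.5 to 545 TPM in TFAM RNAi and 600.4 to 972 TPM in control. ZnT35C, Irk3 and salt overlapped between the groups. Their medians were also lower in TFAM RNAi (46.9, 63.6 and 85.3 TPM) than in control (54.0, 70.75 and 103 TPM). Transcript length also separated libraries. The median log2 deviation of 1404 genes with transcripts over 4000 bases, minus that of 2322 genes with transcripts of up to 1000 bases, was −0.67 in TFAM RNAi replicate 3 and 0.003 to 0.48 in the other TFAM RNAi libraries. In control it was −0.47, −0.32, −0.34 and −0.32 in replicates 2, 3, 6 and 7, and 0.43 and 0.35 in replicates 5 and 8. Thus 1 TFAM RNAi library and 4 control libraries were low in long transcripts, too few TFAM RNAi libraries for a comparison among these 5. GST transcripts are short, with a longest annotated transcript of 725 to 2202 bases per gene. The part of these differences in the GST results was not tested. Counts of calls are given below also without the libraries richest in other-tissue markers, and without those low in long transcripts. Leaving out libraries cannot address a difference that separates all libraries of the groups, such as the Malpighian tubule sum.

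The fat body expressed most of the family. A mean of at least 1 TPM over the 12 libraries was reached by 30 of the 35 genes. In sum the family took 0.387 to 0.485% of all TPM in TFAM RNAi and 0.458 to 0.555% in control. Its summed level was 3870, 4319 and 4846 TPM (lowest, median, highest) in TFAM RNAi, against 4575, 5174 and 5548 TPM in control, and 4 of the 6 TFAM RNAi libraries lay below every control library. The Epsilon sum was 1209 to 1513 TPM in TFAM RNAi and 1651 to 2199 TPM in control, and the Theta sum 229 to 268 TPM and 300.1 to 359 TPM. Neither class sum overlapped between the groups. The Delta sum overlapped, at 1851 to 2662 TPM in TFAM RNAi and 1823 to 2787 TPM in control. So did the Omega sum, at 178 to 197 TPM and 148 to 198 TPM, with 1 control library (replicate 2) above all TFAM RNAi libraries. These sums are descriptions without a test, and in dissected tissue fewer cells of a type and less RNA per cell cannot be told apart.

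**Figure D1:**
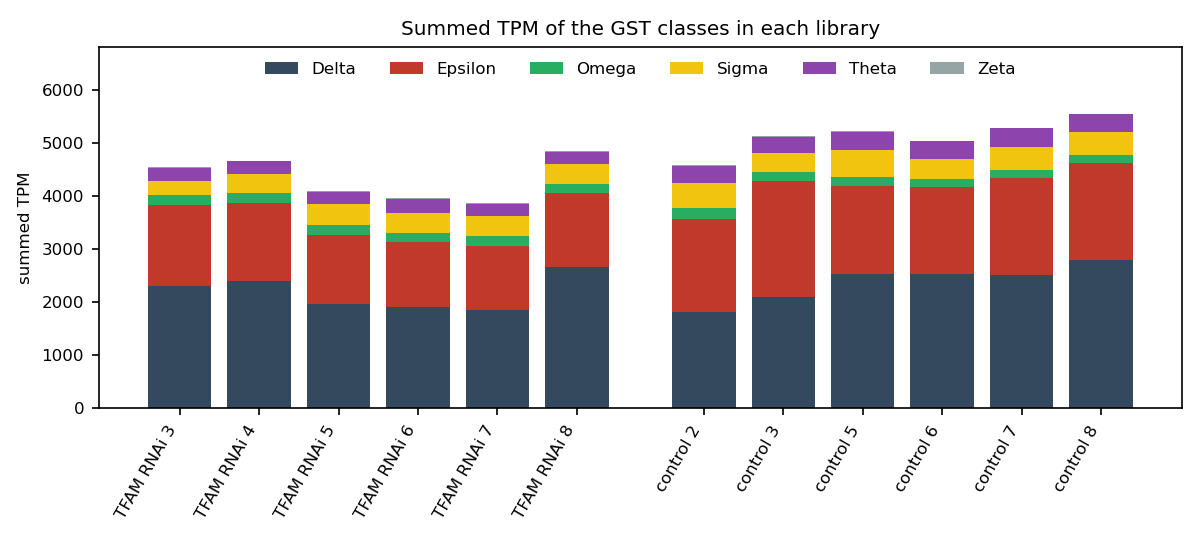
Stacked bars of summed TPM (y axis) of the 6 GST classes in each of the 6 TFAM RNAi and 6 control libraries (x axis, by replicate number). The Epsilon part is at most 1513 TPM in the TFAM RNAi libraries and at least 1651 TPM in the control libraries, while the Delta parts overlap.

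A few genes carried most of this level. GstD1, whose enzyme can break down DDT and whose promoter is widely used in reporters of oxidative stress, was the highest in both groups, at 1268 ± 216 TPM in TFAM RNAi and 1283 ± 195 TPM in control (SD, n = 6 each). The 5 highest genes held 69.7% of the mean GST level in TFAM RNAi and 65.5% in control. They were the same 5 genes, in another order. After GstD1 came GstD7, GstE12, GstS1 and GstE9 in TFAM RNAi (573, 569.9, 351 and 254 TPM on average), and GstE9, GstD7, GstE12 and GstS1 in control (625.2, 591, 435 and 429 TPM). In TFAM RNAi the levels of GstD7 and GstE12 overlapped across libraries, as did those of GstS1 and GstE9. In control the levels of GstE9 and GstD7 overlapped, as did those of GstE12 and GstS1, so the order within each of these pairs is within the spread. GstD5 ranked 29th in TFAM RNAi and 7th in control.

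Differences between the groups were tested on log2(TPM + 1) with limma over the 9951 genes that averaged 1 TPM or more, and a gene was called at a Benjamini-Hochberg adjusted p under 0.05. Of the 30 tested GST genes, 5 were called higher in TFAM RNAi and 9 lower, and 16 were not called. Among all tested genes 5.75% were called higher, 13.8% lower and 19.6% in either direction. The median log2 fold change was −0.26 over the GST genes and 0.01 over all tested genes. Groups stood wholly apart for 3 of the genes called higher and 8 of those called lower; among all tested genes 3.56% lay wholly higher and 9.76% wholly lower. By class, 2 Delta genes were called higher and 3 lower, 2 Epsilon genes higher and 4 lower, 1 Omega gene higher and 2 Theta genes lower, and none of the Sigma and Zeta genes was called. When the 4 libraries with most marker signal from other tissues (TFAM RNAi replicates 3 and 4, control replicates 2 and 3) were left out, 3 GST genes passed as higher and 11 as lower, beside 11.8 and 10.7% of all tested genes and 22.4% in either direction. Of the 14 calls 12 were made again in that fit. By class, that fit called 4 Delta genes lower and 2 Epsilon genes higher and 5 lower. It also called 1 Omega gene higher and 2 Theta genes lower. GstD2 and GstE5 among them were not called with all libraries. Wholly apart in those 8 libraries were 3 GST genes higher and 11 lower, beside 15.2 and 12.8% of all tested genes. Without the 5 libraries low in long transcripts, 3 passed as higher and 10 as lower, beside 5.17 and 9.16% of all tested genes and 14.3% in either direction, and 11 of the 14 calls were made again. By class, the calls of this fit were 3 Delta genes lower and 2 Epsilon genes higher and 4 lower. The rest were 1 Omega gene higher, 1 Sigma gene lower and 2 Theta genes lower. GstE7 and GstS1 among them were not called with all libraries. With only 2 control libraries left, 3 GST genes lay wholly higher and 13 wholly lower, beside 12.3 and 17.9% of all tested genes. When libraries were instead rescaled within bins of transcript length, all 14 were made again and no other GST gene was called, beside 8.04% higher, 13.3% lower and 21.3% in either direction. The scaling mattered most for the genes called higher. Under median-ratio scaling 2 GST genes passed as higher and 9 as lower, beside 4.49, 11.3 and 15.8% of all tested genes (higher, lower, either). Of the 14 calls 10 were made again there, and among the lower genes GstE10 was lost and GstS1 was added. Under quantile normalization 7 passed as higher and 8 as lower, beside 9.66, 10.8 and 20.5%, and 13 of the 14 calls were made again. With array weights, which count libraries that stand apart less, 4 passed as higher and 15 as lower, beside 26.5, 20.2 and 46.7%. By the exact rank-sum test 4 passed as higher and 9 as lower, beside 5.28, 13.4 and 18.7%.

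**Figure D2:**
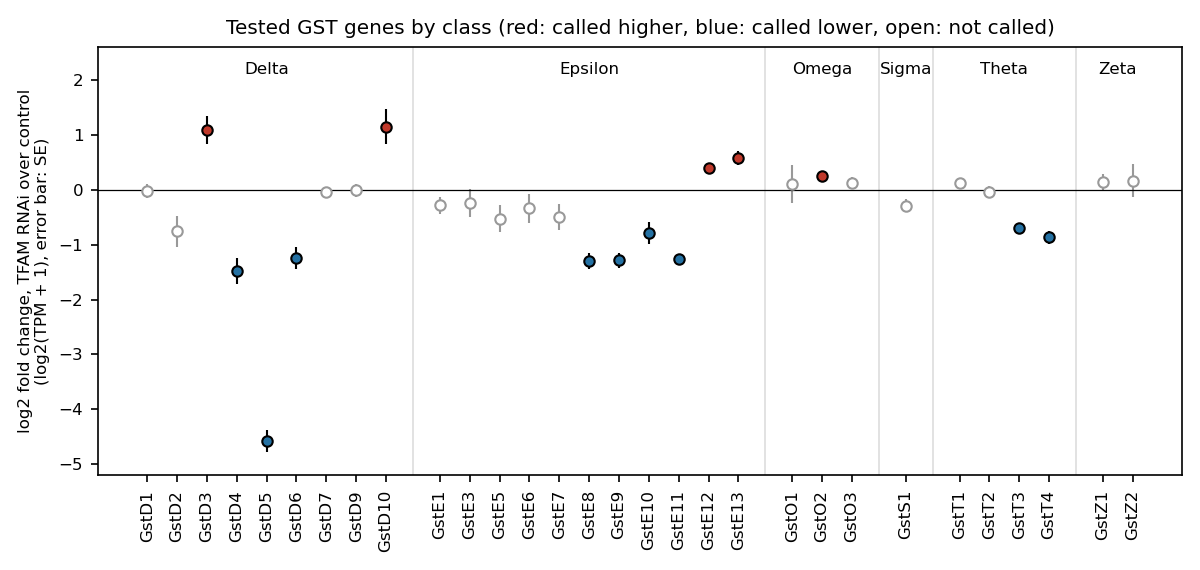
Log2 fold change, TFAM RNAi over control, computed from log2(TPM + 1) (y axis, error bars: moderated SE) for the 30 tested GST genes grouped by class (x axis). GstD5 lies lowest at −4.58 and GstD10 highest at 1.15; filled points are the 14 called genes and open points the 16 not called.

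Within the Delta class the largest difference was a near loss of GstD5. It had 4.42, 5.39 and 8.87 TPM (lowest, median, highest) in TFAM RNAi, against 114, 149 and 253 TPM in control. All 6 TFAM RNAi libraries were more than 10-fold below the lowest control. Its log2 fold change was −4.58 (SE 0.20, limma adjusted p = 9.2e-09), and from −4.87 to −3.93 over the 27 alternative fits, in all of which it was called. GstD5 made up 0.191 to 0.369% of the Delta level in TFAM RNAi and 4.65 to 10.1% in control. GstD4, its neighbour on one side, had 22.0, 25.1 and 41.7 TPM in TFAM RNAi and 44.3, 84.7 and 118 TPM in control (log2 fold change −1.48, SE 0.23, limma adjusted p = 4.5e-04). GstD6, the neighbour on the other side, had 24.8, 30.8 and 43.5 TPM in TFAM RNAi and 53.7, 73.6 and 125 TPM in control (log2 fold change −1.24, SE 0.20, limma adjusted p = 6.3e-04). Neither gene overlapped between the groups. Their calls also held in all 27 alternative fits, with log2 fold changes from −1.89 to −1.28 for GstD4 and from −1.68 to −1.04 for GstD6.

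GstD3 and GstD10 went the other way. GstD3 had 38.3, 60.8 and 118 TPM in TFAM RNAi and 23.2, 27.04 and 42.3 TPM in control (log2 fold change 1.09, SE 0.26, limma adjusted p = 0.0093). Control replicate 8 was above the TFAM RNAi minimum, so the groups overlapped. GstD10 had 101, 127 and 233 TPM in TFAM RNAi and 39.9, 59.6 and 150.2 TPM in control (log2 fold change 1.15, SE 0.32, limma adjusted p = 0.022). Here again control replicate 8 was the one control library inside the TFAM RNAi range. Both calls were lost when several libraries were left out. Without the 5 libraries low in long transcripts GstD3 had a log2 fold change of 0.99 (limma adjusted p = 0.20) and GstD10 of 0.50 (limma adjusted p = 0.44). Without the 4 marker-rich libraries the log2 fold changes were 1.005 and 0.877 (limma adjusted p = 0.0592 and 0.118). The GstD3 estimate thus stayed close to that from all libraries, while the GstD10 estimate shrank. The GstD10 call was lost, too, on leaving out TFAM RNAi replicate 4, TFAM RNAi replicate 8 or control replicate 7 (adjusted p of 0.0531 to 0.0547) and by the exact rank-sum test (0.107), and GstD3 was not called with array weights (adjusted p = 0.083).

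The other tested Delta genes were not called. GstD7 had 519, 569 and 654 TPM in TFAM RNAi and 496, 594 and 685 TPM in control (log2 fold change −0.04, limma adjusted p = 0.81), and array weights alone called it lower (adjusted p = 0.0406). GstD9 had 28.3 to 41.1 TPM in TFAM RNAi and 27.5 to 40.8 TPM in control. GstD2 had 15.0, 22.8 and 44.0 TPM in TFAM RNAi and 24.1, 43.8 and 57.15 TPM in control, with a log2 fold change of −0.76 (limma adjusted p = 0.088). It was called lower without TFAM RNAi replicate 3 (adjusted p = 0.0255), without control replicate 2 (0.0337) and without the 4 marker-rich libraries (0.0021). Array weights (limma adjusted p = 7.1e-04) and the replicate block (0.0281) also called it lower. Median-ratio scaling (0.19), quantile normalization (0.22) and the fit without the 5 libraries low in long transcripts (0.0743) did not.

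In RefSeq order the Delta cluster runs GstD10, GstD9, GstD1, GstD2, GstD3, GstD4, GstD5, GstD6, GstD7, GstD8, GstD11. GstD10, GstD9 and GstD1 lie on one strand and the rest on the other. A gene called higher (GstD3) thus sat directly beside 3 genes called lower (GstD4, GstD5, GstD6), which were followed by GstD7, which was not called. Because these are closely related copies and nothing in the sources used here says how shared reads were assigned, the split of reads between neighbours is uncertain. No tested GST gene had the same values as another tested gene in all libraries, which does not show how shared reads were split.

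**Figure D3:**
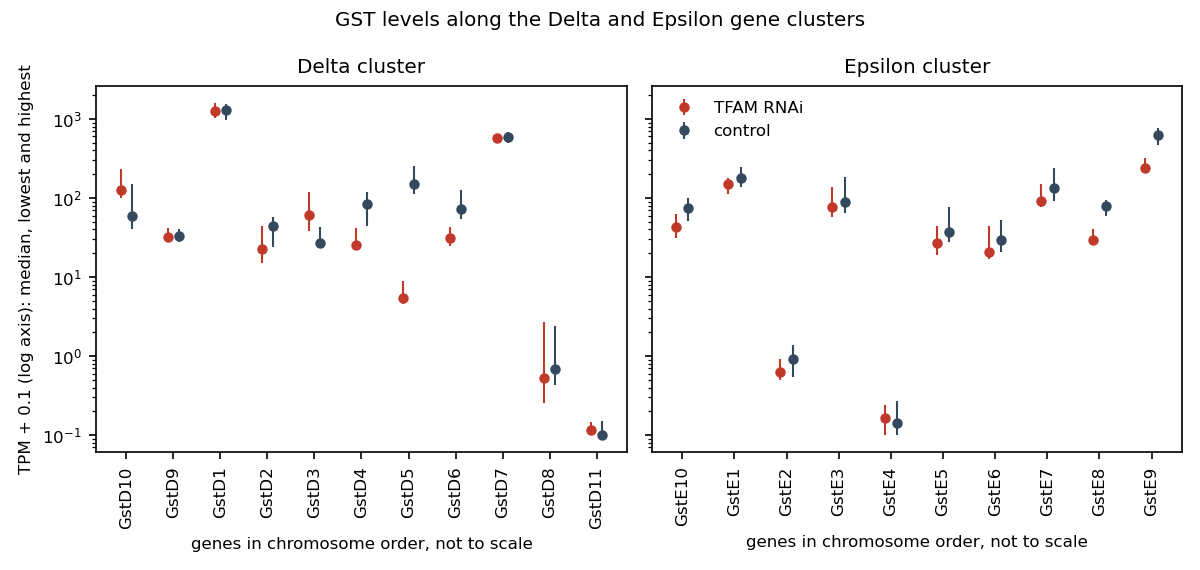
TPM + 0.1 on a log axis (y) for each gene of the Delta and Epsilon clusters in chromosome order (x, not to scale), with points at the median and bars from the lowest to the highest of 6 libraries, for TFAM RNAi and control. GstD5 drops to 4.42 to 8.87 TPM in TFAM RNAi between GstD4 and GstD6, and in the Epsilon cluster the ranges of GstE8 and GstE9 are separate.

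GstD1 was not called as a gene, with 1042, 1247 and 1608 TPM in TFAM RNAi and 968, 1312 and 1549 TPM in control (log2 fold change −0.02, SE 0.13, limma adjusted p = 0.94). Its annotated transcripts had unlike values. NM_079602 had 228, 321 and 510.1 TPM in TFAM RNAi and 52.9, 119 and 259 TPM in control, and NM_001038953 had 731, 938 and 1098 TPM in TFAM RNAi and 856, 1165 and 1408 TPM in control. NM_079602 therefore made up 20.6 to 33.0% of GstD1 in TFAM RNAi and 3.88 to 20.5% in control. The shares did not overlap, though control replicate 7 came within a percentage point of the lowest TFAM RNAi library. In the authors' deposited table of Wald tests NM_079602 had a natural-log coefficient of 0.999 (SE 0.281, q = 0.0059) and NM_001038953 one of −0.209 (q = 0.57). The transcript shares are given as a description and were not tested.

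**Figure D4:**
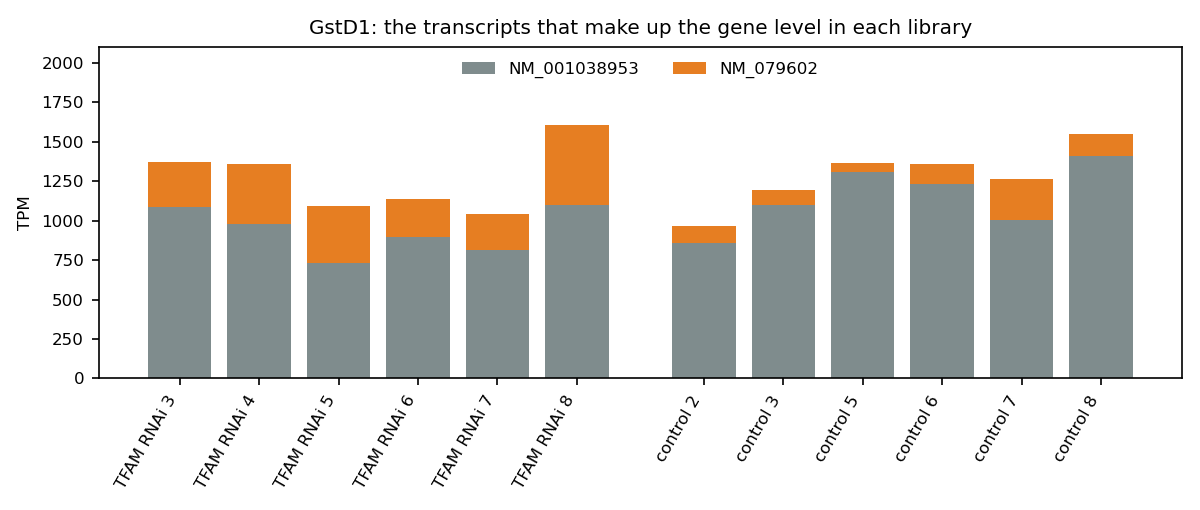
Stacked bars of TPM (y axis) of the GstD1 transcripts NM_001038953 and NM_079602 in each TFAM RNAi and control library (x axis, by replicate number). Whole bars overlap between the groups, while the NM_079602 part is 228 to 510.1 TPM in TFAM RNAi and 52.9 to 259 TPM in control.

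In the Epsilon class 9 of the 11 tested genes had a negative log2 fold change, and 5 of these were not called. The median over all tested genes was 0.01. The count was also 9 without the marker-rich libraries and 9 without those low in long transcripts. These fits share libraries, so the counts are not independent. GstE9, the second highest GST gene of control fat body, had 223, 241 and 325 TPM in TFAM RNAi and 471, 629.7 and 769 TPM in control (log2 fold change −1.28, SE 0.14, limma adjusted p = 1.7e-05). It made up 15.6 to 21.5% of the Epsilon level in TFAM RNAi and 25.8 to 41.0% in control. Its neighbour GstE8 had 25.0, 29.3 and 40.6 TPM in TFAM RNAi and 59.5, 79.7 and 93.4 TPM in control (log2 fold change −1.30, SE 0.14, limma adjusted p = 2.1e-05). GstE11, which lies outside the cluster and varied little within either group, had 30.5, 31.9 and 35.1 TPM in TFAM RNAi and 71.0, 80.1 and 87.1 TPM in control (log2 fold change −1.26, SE 0.07, limma adjusted p = 6.6e-08). None of these 3 genes overlapped between the groups, and each was called in all 27 alternative fits. GstE10, at the other end of the cluster, had 31.5, 42.7 and 63.3 TPM in TFAM RNAi and 51.2, 75.7 and 99.99 TPM in control (log2 fold change −0.79, SE 0.20, limma adjusted p = 0.015). Its groups overlapped through TFAM RNAi replicate 3, and it was not called with median-ratio scaling (adjusted p = 0.0699), quantile normalization (0.0598) or without the 5 libraries low in long transcripts (log2 fold change −0.44, adjusted p = 0.12). GstE10 also overlaps GstE1 on the opposite strand. The library kit keeps strand; no source used here says whether quantification did.

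Between these ends of the cluster, GstE1, GstE3, GstE5, GstE6 and GstE7 were not called, with log2 fold changes from −0.53 to −0.24 (limma adjusted p from 0.177 to 0.60). GstE1, the highest of them, had 114, 151 and 181 TPM in TFAM RNAi and 138, 178 and 247 TPM in control (log2 fold change −0.29, SE 0.16, limma adjusted p = 0.27). Across control libraries the highest level was 1.79 times the lowest for GstE1 and 2.6 to 2.8 times for GstE3, GstE5, GstE6 and GstE7. Genes called different covered this spread too, from 1.17 times for GstT3 to 3.77 times for GstD10. GstE7 had 76.8, 91.6 and 152 TPM in TFAM RNAi and 92.4, 136 and 241 TPM in control, and was called lower without the 5 libraries low in long transcripts (log2 fold change −1.04, adjusted p = 0.0458). Array weights called GstE5, GstE6 and GstE7 lower (adjusted p from 0.00605 to 0.0245), and GstE5 was also called lower without the 4 marker-rich libraries (−0.57, adjusted p = 0.0465). GstE3 and GstE5 were highest in control replicate 3 (182 and 77.8 TPM), the library with the most midgut marker signal. Among control libraries, that one was also highest for GstE6 and for the called genes GstE9, GstE10, GstE11, GstE12 and GstE13. For GstE1, GstE7 and GstE8 the highest was control replicate 8. The part of midgut tissue in these levels was not tested.

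GstE12 and GstE13, which are not in the Epsilon cluster, rose. GstE12 had 540.4, 556 and 638 TPM in TFAM RNAi and 391, 439.5 and 475 TPM in control (log2 fold change 0.39, SE 0.06, limma adjusted p = 5.4e-04). Its main transcript, NM_001299928, also did not overlap, at 386 to 472 TPM in TFAM RNAi and 315 to 363 TPM in control. GstE12 made up 39.7 to 45.4% of the Epsilon level in TFAM RNAi and 21.6 to 28.0% in control, where GstE9 made up the larger share on the median (33.9% against 23.5%). GstE13 had 21.9, 25.7 and 32.1 TPM in TFAM RNAi and 13.6, 17.6 and 21.1 TPM in control (log2 fold change 0.57, SE 0.12, limma adjusted p = 0.0045). Neither gene overlapped between the groups. Under median-ratio scaling both calls were lost (adjusted p = 0.21 and 0.089); without the 5 libraries low in long transcripts both held, at log2 fold changes of 0.40 (adjusted p = 0.00677) and 0.80 (0.0028). GstE9, GstE12 and GstE13 each overlap a gene on the opposite strand (imd, CG3894 and CG18659), which averaged 9.83 to 22.6 TPM in TFAM RNAi and 11.4 to 26.8 TPM in control.

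Of the Theta genes, GstT3 and GstT4 fell and GstT1 and GstT2 were not called. GstT3 had 29.6, 40.1 and 45.1 TPM in TFAM RNAi and 58.2, 62.5 and 67.9 TPM in control (log2 fold change −0.70, SE 0.10, limma adjusted p = 2.2e-04). GstT4 had 71.1, 83.3 and 111 TPM in TFAM RNAi and 134, 154 and 190.5 TPM in control (log2 fold change −0.87, SE 0.12, limma adjusted p = 1.7e-04). Neither overlapped between the groups, and both were called in all 27 alternative fits. GstT1 had 88.0 to 128 TPM in TFAM RNAi and 83.8 to 107 TPM in control, and GstT2, its neighbour on the chromosome, 13.5 to 18.2 TPM and 13.4 to 19.4 TPM (limma adjusted p = 0.40 and 0.86). Quantile normalization called GstT1 higher (log2 fold change 0.33, adjusted p = 0.0456). GstT2 overlaps CG12926 on the opposite strand, which averaged 12.7 TPM in TFAM RNAi and 33.3 TPM in control.

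The Omega class showed the smallest called difference of the family. GstO2 had 102, 108 and 118 TPM in TFAM RNAi and 85.2, 90.3 and 100.3 TPM in control (log2 fold change 0.25, SE 0.06, limma adjusted p = 0.0069). The groups did not overlap, but median-ratio scaling removed the call (adjusted p = 0.29). GstO3 had 55.5 to 81.8 TPM in TFAM RNAi and 51.7 to 67.0 TPM in control. GstO1 had 8.53 to 19.5 TPM in TFAM RNAi and 6.15 to 30.5 TPM in control, and its highest control library stood 4.96 times above its lowest. Neither was called (limma adjusted p = 0.47 and 0.88), though GstO3 was called higher under quantile normalization (log2 fold change 0.33, adjusted p = 0.0465). The eye pigment gene sepia (se), an Omega-class enzyme lying between GstO3 and GstO2 and overlapping GstO2 on the opposite strand, that the naming rule does not take in, had at most 0.676 TPM in any library.

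GstS1, the only Sigma gene and a relative of the vertebrate haematopoietic prostaglandin D synthase, had 258, 371 and 385 TPM in TFAM RNAi and 362, 427 and 510.3 TPM in control. Its log2 fold change was −0.29 (SE 0.11, limma adjusted p = 0.10). It was called lower under median-ratio scaling (−0.31, adjusted p = 0.0276), without the 5 libraries low in long transcripts (−0.34, adjusted p = 0.0208) and with array weights (−0.20, adjusted p = 0.0315), and not under quantile normalization (−0.10, adjusted p = 0.60). Of its 4 transcripts NM_166217 did not overlap between the groups, at 42.2 to 58.8 TPM in TFAM RNAi and 64.2 to 101.5 TPM in control, or 14.6 to 16.3% of GstS1 in TFAM RNAi and 17.6 to 19.9% in control. In the authors' deposited table its natural-log Wald coefficient was −0.367 (q = 0.0031). The Zeta genes belong to the class that isomerizes maleylacetoacetate in tyrosine breakdown. GstZ1 had 9.46 to 17.2 TPM in TFAM RNAi and 10.4 to 16.3 TPM in control, and GstZ2 1.68 to 4.65 TPM and 0.903 to 4.74 TPM (limma adjusted p = 0.57 and 0.76).

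The 5 members below the filter were GstD8, GstD11, GstE2, GstE4 and GstE14. GstD8 reached 2.59 TPM in TFAM RNAi replicate 4 and 2.28 TPM in control replicate 3, and otherwise stayed below 1 TPM. GstE2 had 0.406 to 0.832 TPM in TFAM RNAi and 0.445 to 1.3 TPM in control. GstD11 and GstE4 had at most 0.14 TPM in TFAM RNAi and 0.17 TPM in control, with some libraries listed at 0. GstE14, known as noppera-bo and needed for ecdysone synthesis in the ring gland, had 0.0387 to 1.4 TPM in TFAM RNAi and 0 to 0.657 TPM in control. Ring gland markers (5 of 6 in the table) summed to 2.81 to 16.5 TPM in TFAM RNAi and 42.8 to 75.5 TPM in control. In control most of this was sad, at 0 to 1.74 TPM in TFAM RNAi and 37.7 to 73.6 TPM in control. In TFAM RNAi the highest median was that of sro (4.76 TPM), which went the other way without overlap, at 2.52 to 11.1 TPM in TFAM RNAi and 0.366 to 1.85 TPM in control, while dib stayed below 1 TPM in each library.

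**Figure D5:**
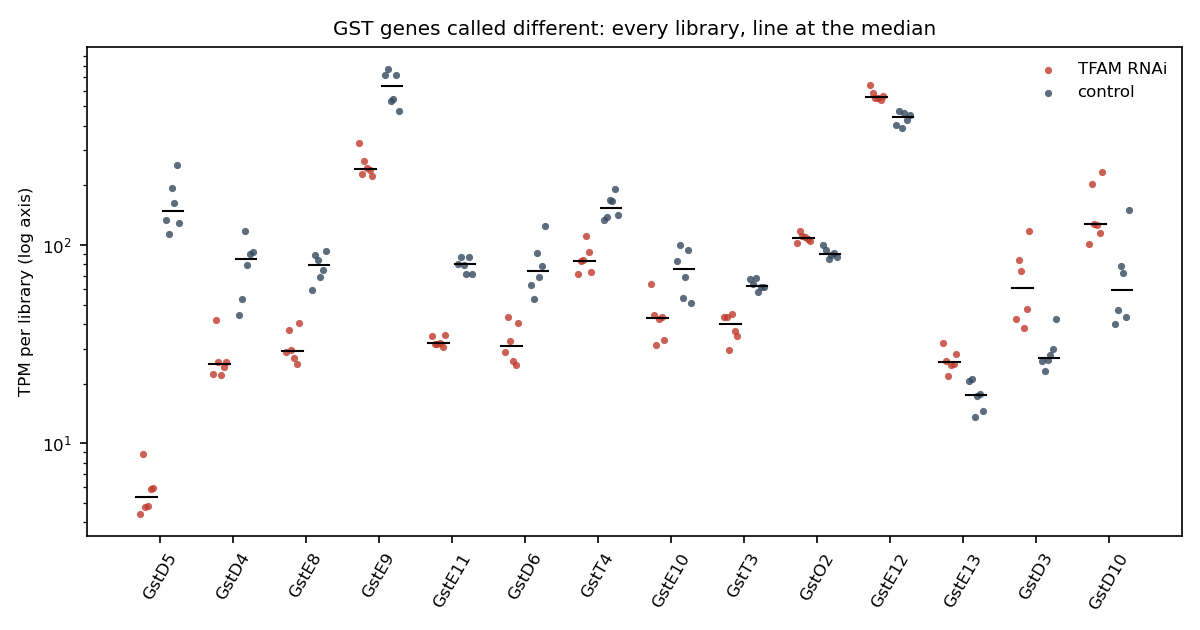
TPM per library on a log axis (y) for the 14 GST genes called different, ordered by log2 fold change (x); each point is a library, TFAM RNAi at the left and control at the right of each pair, and lines mark medians. The groups are separate for 11 of the 14 genes and overlap for GstE10, GstD3 and GstD10.

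The authors' deposited table of gene-level likelihood ratio tests lists 1561 genes with a q under 0.05, among them 10 GST genes. All 10 are among the 14 genes called here. The smallest q values in the authors' deposited table were those of GstD5 (2.2e-08) and GstE11 (2.9e-05), and the largest that of GstD10 (0.041). The other 4, GstE10, GstE12, GstE13 and GstO2, are absent from that list. Of 50 GST transcripts with a Wald q in the authors' deposited table, 14 had a q under 0.05, 11 with a negative and 3 with a positive coefficient. Of all 21722 transcripts with a Wald q in the authors' deposited table, 9.22% had a q under 0.05, 6.2% with a negative and 3.02% with a positive coefficient. The 3 were transcripts of GstD1, GstD3 and GstD10.

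Genes that make glutathione, use it or regulate GST genes were described from a list of 25. Of the 23 tested, 5 were called higher, 5 lower and 13 not (median log2 fold change 0.08), beside 5.75% of all tested genes higher, 13.8% lower and 19.6% in either direction. Without the 4 marker-rich libraries 5 were called higher and 3 lower (11.8 and 10.7% of all), and without the 5 libraries low in long transcripts 6 and 4 (5.17 and 9.16%). Glutamate-cysteine ligase makes the first and rate-limiting step of glutathione synthesis. Its catalytic subunit gene Gclc fell to 4.98 to 9.1 TPM in TFAM RNAi, against 12.1 to 21.8 TPM in control (log2 fold change −1.06, SE 0.19, limma adjusted p = 0.0011), without overlap. The modifier subunit gene Gclm had 64.0 to 89.96 TPM in TFAM RNAi and 61.5 to 95.9 TPM in control and was not called (limma adjusted p = 0.69). Quantile normalization called it higher (log2 fold change 0.299, limma adjusted p = 0.0467). The glutathione synthetase genes Gss1 and Gss2 share identical values, 45.8 to 54.4 TPM in TFAM RNAi and 35.9 to 46.2 TPM in control, which belong to either gene. They count as 2 of the 5 called higher (log2 fold change 0.39, limma adjusted p = 0.0025). In the supply of cysteine, cystathionine gamma-lyase (Cth) rose to 347 to 407 TPM in TFAM RNAi, against 231 to 280 TPM in control (log2 fold change 0.59, limma adjusted p = 1e-05). Cystathionine beta-synthase (Cbs), which acts just before it, fell to 40.3 to 63.2 TPM in TFAM RNAi, against 70.0 to 135 TPM in control (log2 fold change −1.0, limma adjusted p = 4.7e-04).

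Among other enzymes that use glutathione or keep it reduced, the microsomal glutathione transferase gene Mgstl rose to 362 to 534 TPM in TFAM RNAi, against 216 to 299.7 TPM in control (log2 fold change 0.91, SE 0.11, limma adjusted p = 4.9e-05). Formaldehyde dehydrogenase (Fdh), which acts on a glutathione adduct, rose to an average of 285 TPM in TFAM RNAi, against 208 TPM in control (log2 fold change 0.47, limma adjusted p = 0.0056), but was not called with median-ratio scaling (adjusted p = 0.202). Thioredoxin reductase 1 (Trxr1), which serves in flies in place of the glutathione reductase they lack, fell to 118 to 150.3 TPM in TFAM RNAi, against 204 to 293 TPM in control (log2 fold change −0.81, limma adjusted p = 4.2e-05). Clic, which shares the GST fold, fell to an average of 18.6 TPM in TFAM RNAi, against 27.5 TPM in control (log2 fold change −0.53, limma adjusted p = 0.014), and was not called by the rank-sum test, with the replicate block or without the 4 marker-rich libraries (adjusted p from 0.0587 to 0.126).

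Of the regulators, cnc and Keap1 were not called and maf-S was. The CncC gene cnc had 13.2 to 62.4 TPM in TFAM RNAi and 18.6 to 60.1 TPM in control (log2 fold change 0.43, SE 0.41, limma adjusted p = 0.55). Its level was lowest in the libraries low in long transcripts: it had 13.2 TPM in TFAM RNAi replicate 3 and 41.0 to 62.4 TPM in the other TFAM RNAi libraries, and 18.6 to 27.8 TPM in control replicates 2, 3, 6 and 7 and 59.0 and 60.1 TPM in control replicates 5 and 8. Without those 5 libraries its log2 fold change was −0.20 (adjusted p = 0.517), and with array weights it was 0.94 (adjusted p = 0.0167). Keap1 had 3.51 to 6.51 TPM in TFAM RNAi and 3.17 to 4.97 TPM in control (limma adjusted p = 0.66), and was called higher with array weights (log2 fold change 0.34, adjusted p = 0.049). The gene of the CncC partner Maf-S (maf-S) averaged 39.1 TPM in TFAM RNAi and 49.9 TPM in control (log2 fold change −0.33, limma adjusted p = 0.037). That call was lost in 8 of the 12 fits without 1 library (adjusted p up to 0.0848), under median-ratio scaling (0.112) and quantile normalization (0.286), and without the 5 libraries low in long transcripts (0.407).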

How the data were processed

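RNA was sequenced from larval fat body in 6 TFAM RNAi and 6 control libraries, with a directional kit per the labels' protocols. The authors deposited TPM for 34213 RefSeq transcripts (each library sums to 1000000). Separate deposited tables hold the authors' p-values and q-values from 2 kinds of test, per gene and per transcript. The submitters' processing notes list sleuth and no version; no source used here names the quantifier or genome build. The authors' deposited Wald coefficients are natural log values, since their slope against differences in mean ln TPM was 0.999 (1498 transcripts above 50 TPM). Read depth cannot be read from TPM, and counting intervals are not given. Columns of samples outside the 12 numbered 0.

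Accessions were matched to a RefSeq table of Release 6 plus ISO1 MT (99.65% of transcripts found), and TPM were summed per gene. The 9951 genes averaging 1 TPM or more were fitted with limma 3.58.1 in R 4.3.3 (lmFit, then eBayes with a trend) on log2(TPM + 1), with no block, two-sided, adjusted by Benjamini-Hochberg over them all and called under 0.05. Fold changes on this scale understate the change of low genes. The fit was tested on simulated data. Alternatives were 3 other pseudocounts, 2 filters, 2 scalings, 4 other tests, a replicate block and leaving out each library, and 3 chosen after seeing the data. Replicate numbers were not taken to pair the libraries, though the 5 shared numbers are too few to decide this. Transcript lengths came from an Ensembl annotation of BDGP6 and covered 9938 of the 9951 genes; coordinates are left out, the files' build being unnamed. Every member is described, called ones in full with GstD1, GstE1, GstE12 and GstS1; from the glutathione list, each called gene and Gclc, Gclm, cnc and Keap1 are named. The members and lists were chosen with earlier results of these data known. Promoter and protein sequences were not analysed here.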

Additional observations from a re-analysis of the deposited data

Results flagged for a closer look

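Of 72 sets of 6 libraries (each tested gene and each class sum in each group), 10 had 1 library far from the other 5 by Dixon's criterion, which chance alone meets in about 5 of 100 sets. TFAM RNAi replicate 4 was highest for GstD4 (41.7 TPM, next 25.9 TPM), GstD5 (8.87 TPM, next 5.96 TPM) and GstE3 (138 TPM, next 85.5 TPM). TFAM RNAi replicate 3 was lowest for GstS1, and so for the Sigma sum (258 TPM, next 352 TPM). Control replicate 8 was highest for GstD3 (42.3 TPM, next 30.0 TPM) and GstD10 (150.2 TPM, next 78.7 TPM). Control replicate 3 was highest for GstE5 (77.8 TPM, next 46.1 TPM) and for the Epsilon sum (2199 TPM, next 1824 TPM), and control replicate 2 for the Omega sum (197.9 TPM, next 161 TPM). TFAM RNAi replicates 3 and 4 and control replicates 2 and 3 are the libraries with the most marker signal of other tissues, at 3694 to 3811 TPM in TFAM RNAi and 4792 to 5426 TPM in control; their part in these values was not tested.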

How the results depend on the processing

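GstD4, GstD5, GstD6, GstE8, GstE9, GstE11, GstT3 and GstT4 were called lower in all 27 alternative fits. GST genes called higher numbered 2 under median-ratio scaling, 3 without the 4 marker-rich libraries and 3 without the 5 libraries low in long transcripts, against 5 as reported, beside 4.49, 11.8, 5.17 and 5.75% of all genes. Those called lower numbered 15 with array weights and 14 with the replicate block, against 9, beside 20.2, 11.7 and 13.8%. With each library left out in turn there were 4 to 5 higher and 9 to 10 lower. Of the 9867 to 10023 genes tested in those fits, 474 to 798 were called higher and 1153 to 1426 lower. Of the glutathione list, 9 were called higher under quantile normalization and 9 with array weights, against 5, beside 9.66, 26.5 and 5.75% of all genes. Called lower were 3 by the rank-sum test, 3 with the replicate block and 3 without the marker-rich libraries, against 5, beside 13.4, 11.7, 10.7 and 13.8% of all genes. Leaving out each library gave 5 to 7 higher and 4 to 5 lower, beside 474 to 798 and 1153 to 1426 of all tested genes. The causes were not tested.

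Same-numbered libraries correlated at −0.08 to 0.62 over 5 numbers, and 2 of 5 TFAM RNAi libraries were closest to their own number. The numbers are not taken as pairs, though 5 are too few to decide whether libraries of the same number belong together. With the replicate block all 14 GST calls were made again, among 13.5% of all genes higher and 11.7% lower (25.2% in either direction), and GstD2, GstE1, GstE5, GstE6 and GstE7 were called lower as well.

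The sign turned for some genes that were called neither as reported nor in the fit that turned them. Under quantile normalization the log2 fold changes were 0.011 for GstD1, 0.096 for GstD7, 0.129 for GstD9 and 0.047 for GstT2. Under length-bin scaling they were 0.070 for GstD1, 0.051 for GstD7, 0.076 for GstD9 and 0.055 for GstT2. With array weights they were 0.157 for GstT2, −0.064 for GstZ1 and −0.083 for Gtpx. Gtpx had −0.014 under median-ratio scaling, GstT2 0.013 without the marker-rich libraries and CG33178 0.005 with the replicate block. Without the 5 libraries low in long transcripts they were 0.141 for CG33178, 0.051 for Gdap1, 0.137 for Ggt-1 and −0.202 for cnc. With each library left out in turn, GstD1 ranged from −0.098 to 0.037, GstD7 from −0.087 to 0.006, GstD9 from −0.076 to 0.046, GstT2 from −0.084 to 0.017, GstO1 from −0.091 to 0.337, Ggt-1 from −0.092 to 0.001 and Gtpx from −0.023 to 0.040. Depth is unknown, so what it limits cannot be stated.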
